A study of Oryza sativa with 12 samples.

Results

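The cytosolic class I small heat shock protein genes of rice were examined as 9 loci, given by a list of identifiers that rests on gene family and cluster. The list holds a cluster of 5 genes on chromosome 1 (LOC_Os01g04340, LOC_Os01g04350, LOC_Os01g04360, LOC_Os01g04370 and LOC_Os01g04380, the Hsp16.9 gene and its relatives) and a cluster of 4 genes on chromosome 3 (LOC_Os03g15960, LOC_Os03g16020, LOC_Os03g16030 and LOC_Os03g16040, covering Hsp17.4 to Hsp18). All 9 were found among the 55986 genes of the deposited table, and all 9 were among the 31681 genes tested. The RefSeq gene table used here matched 0 of the 9 loci, so single members are called by locus, and chromosomes are those in the locus names.

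The libraries were made from rice of the cultivar Nipponbare, ntl3-1 mutant or wild type (WT), at an age of 8 days, after 3 h of heat stress at 45 ºC or without it at 29 ºC. Each of these 4 groups had 3 replicates. The ntl3-1 mutant is 1 CRISPR-Cas9 line in which OsNTL3, a membrane-associated NAC transcription factor, is predicted to be truncated. The labels give its genotype as NTL3-/- and name neither the allele nor the temperatures, which come from the methods of the study. RNA came from whole seedlings, so fewer cells of a type and less RNA per cell cannot be told apart, and p-values measure the spread between samples, which may be technical, because independent cultivation of the replicates is not stated.

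Small heat shock proteins are chaperones that assemble into large oligomers and bind unfolding proteins without using ATP. The bound proteins are kept soluble and are later refolded by HSP70 with its co-chaperones, or pulled out of aggregates by HSP100. Plants carry many small heat shock proteins, grouped by compartment, and class I is a cytosolic group. Their genes are classical targets of heat shock factors, the transcription factors that bind heat shock elements in promoters. Members of a cluster can be close copies of each other, and reads that fit several copies can be divided among them, so the level of 1 member is uncertain.

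The values are FPKM as deposited, that is, fragment counts scaled by transcript length and by the size of the library, which allows levels to be set side by side between genes. The FPKM of a library summed to 1153023 to 1369236 at 45 ºC and to 610880 to 698971 at 29 ºC. The read depth is unknown, and any additional scaling across libraries is not known. Among genes near the floor, the most common ratio of FPKM to the first WT replicate at 29 ºC was 1.68 to 2.04 in the 45 ºC libraries. In the 29 ºC libraries it was 0.878 to 1.08. Depth and scaling cannot be told apart here, and their part in the fold changes was not tested. Over all genes tested, the median log2 fold change with heat stress was -0.04 in ntl3-1 and -0.04 in WT. OsNTL3 (LOC_Os01g15640) was detected in all 12 libraries, with lower levels in ntl3-1 than in WT at each temperature and no overlap.

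All 9 class I genes were up-regulated by heat stress in both genotypes. LOC_Os01g04370, the member with the highest mean level at 45 ºC, held 45061, 38205 and 25411 FPKM in ntl3-1 and 32870, 41177 and 48542 FPKM in WT at 45 ºC. At 29 ºC the same gene held 62.3, 6.48 and 13.5 FPKM in ntl3-1 and 4.76, 5.25 and 5.62 FPKM in WT. The temperatures are far apart in both genotypes, and at 29 ºC the first ntl3-1 replicate stands above the other 5 libraries. Its log2 fold change was 10.95 (standard error 0.63) in ntl3-1 and 12.89 (standard error 0.63) in WT, with adjusted p-values of 3.23e-07 and 8.63e-08 (limma with Benjamini-Hochberg adjustment over all genes tested, on log2(FPKM + 0.1)). Standard errors from limma rest on a spread per gene that is pooled over all groups, so they are equal in both genotypes.

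LOC_Os03g16020 led the chromosome 3 cluster in ntl3-1 at 45 ºC, with 34206, 33529 and 29042 FPKM, against 28147, 28215 and 37430 FPKM in WT. At 29 ºC it held 22.7, 9.02 and 17.0 FPKM in ntl3-1 and 4.36, 7.43 and 6.51 FPKM in WT. The lowest 45 ºC library is 1278-fold above the highest 29 ºC library in ntl3-1 and 3790-fold in WT, and at 29 ºC the genotypes do not overlap. Its log2 fold change was 11.04 in ntl3-1 and 12.32 in WT (standard error 0.31 in both).

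LOC_Os03g15960 was close to it, with 34390, 31939 and 25108 FPKM in ntl3-1 and 29653, 31328 and 38920 FPKM in WT at 45 ºC. The 29 ºC libraries held 51.9, 22.2 and 23.8 FPKM in ntl3-1 and 26.9, 24.0 and 30.0 FPKM in WT. This gene was the second most abundant of the 9 in WT without stress. Its log2 fold change was 9.96 in ntl3-1 and 10.26 in WT (standard error 0.30 in both).

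The members other than LOC_Os01g04350 are called inducible here, a name given after seeing the data, although LOC_Os01g04350 was up-regulated as well. LOC_Os01g04340 was the lowest of the inducible genes, with 4156, 3769 and 2229 FPKM in ntl3-1 and 2971, 3899 and 4639 FPKM in WT at 45 ºC. At 29 ºC it held 6.59, 0.439 and 1.17 FPKM in ntl3-1 and 0.597, 0.260 and 0.579 FPKM in WT. All WT values without stress are below 1 FPKM, and ntl3-1 replicates 1 and 3 are above all of them. On the log2(FPKM + 0.1) scale, which understates the change of a gene with such low values, it rose by 10.94 in ntl3-1 and 12.73 in WT (standard error 0.72 in both).

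For the other 4, mean levels at 45 ºC lay close together. LOC_Os01g04360 averaged 11885 ± 3835 FPKM in ntl3-1 and 13557 ± 2672 FPKM in WT (SD, n = 3 each), and LOC_Os01g04380 averaged 13189 ± 2777 FPKM in ntl3-1 and 14456 ± 2658 FPKM in WT. LOC_Os03g16030 averaged 16345 ± 1824 FPKM in ntl3-1 and 15250 ± 2821 FPKM in WT, and LOC_Os03g16040 averaged 17834 ± 2348 FPKM in ntl3-1 and 16265 ± 2312 FPKM in WT. At 29 ºC none of these 4 genes was above 25.8 FPKM in any ntl3-1 library or above 16.7 FPKM in any WT library. As ratios of group means, the 8 inducible genes rose 935-fold to 1985-fold in ntl3-1 and 1098-fold to 8016-fold in WT. Without the first ntl3-1 replicate at 29 ºC the ntl3-1 ratios were 1285-fold to 4196-fold.

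LOC_Os01g04350, annotated in the supplement of the study as an hsp20/alpha crystallin family protein like 3 other members, had a different pattern. It held 744, 521 and 449 FPKM in ntl3-1 and 553, 629 and 680 FPKM in WT at 45 ºC. Without stress it already held 210, 190 and 210 FPKM in ntl3-1 and 164, 176 and 182 FPKM in WT. It was thus the most abundant member at 29 ºC and the least abundant at 45 ºC, and the temperatures did not overlap. The rise was 2.81-fold in ntl3-1 and 3.57-fold in WT, a log2 fold change of 1.46 in ntl3-1 (adjusted p = 4.60e-05 from limma) and 1.83 in WT (adjusted p = 8.26e-06), each with a standard error of 0.17. Its call depended on the scaling, because after quantile normalization the log2 fold change was 0.48 in ntl3-1 and 0.77 in WT, below the threshold of 1. With libraries scaled to equal FPKM sums it was 0.55 in ntl3-1 and 0.86 in WT, where the median of all genes tested was -0.76 and -0.80. Relative to the median of all genes the value was 1.31 in ntl3-1 and 1.67 in WT with equal sums, and 0.56 in ntl3-1 and 0.87 in WT after quantile normalization.

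**Figure D1:**
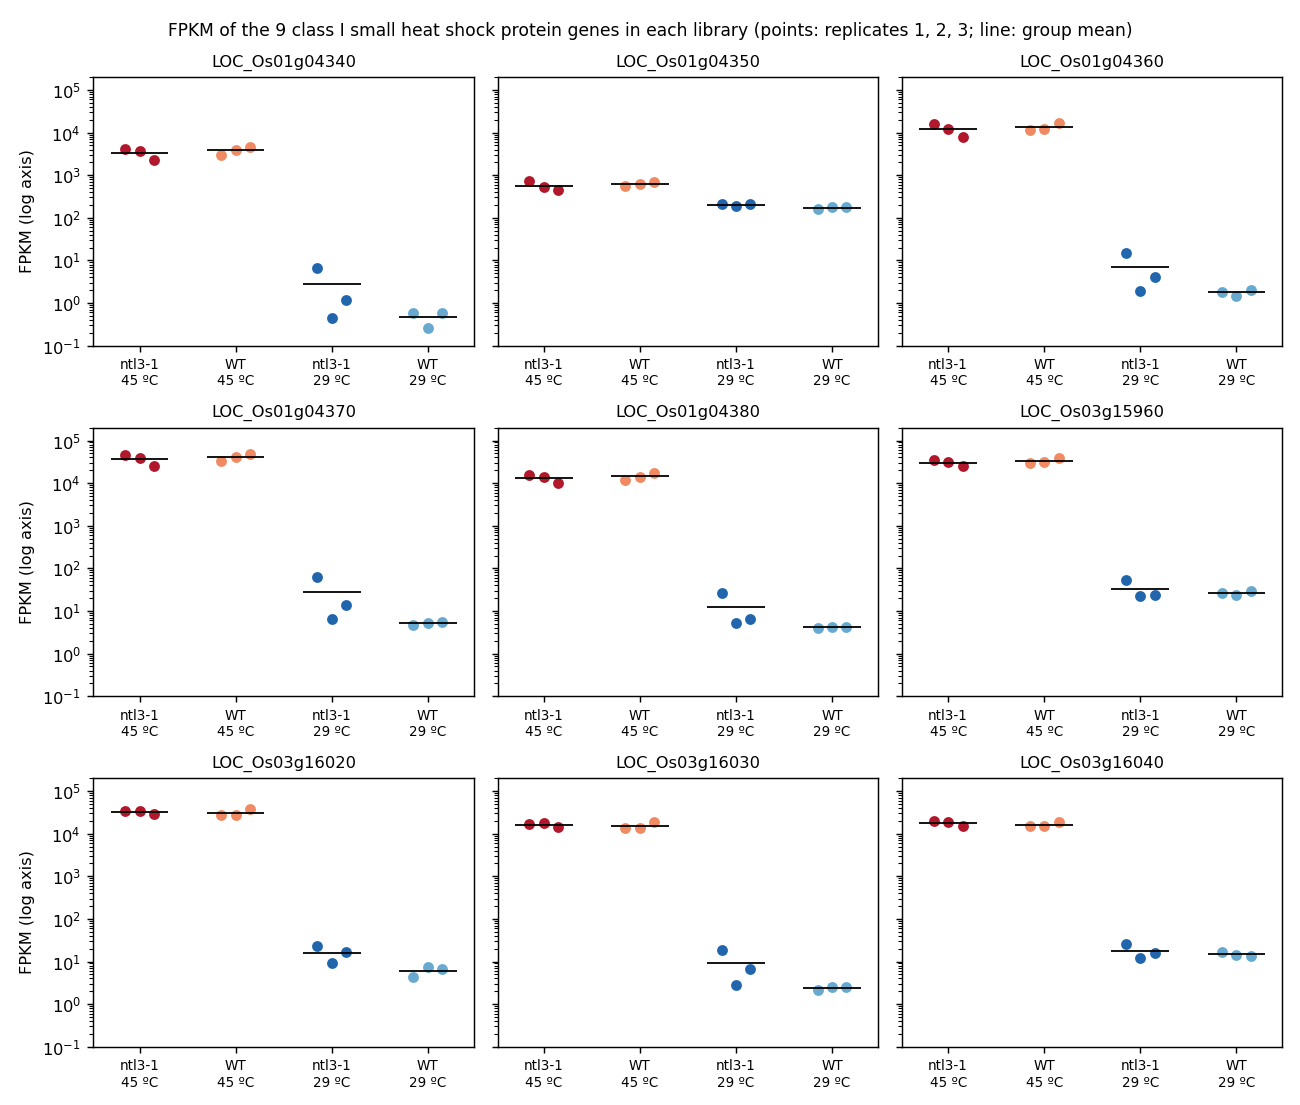
FPKM (log axis) of the 9 class I small heat shock protein genes in each of the 12 libraries, with ntl3-1 and WT at 45 ºC on the left of each panel and ntl3-1 and WT at 29 ºC on the right. Points are replicates 1, 2 and 3 and lines are group means; in 8 genes the lowest 45 ºC point is 339-fold or more above the highest 29 ºC point of its genotype, and LOC_Os01g04350 is 2.81-fold higher at 45 ºC in ntl3-1 and 3.57-fold higher in WT.

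The rule for calling a gene up-regulated was a log2 fold change of at least 1 together with an adjusted p no larger than 0.05. By this rule 9 of 9 members rose and 0 fell in ntl3-1, where 12.9% of all genes tested rose, and 9 of 9 rose and 0 fell in WT, where 13.2% of all genes tested rose. Every 45 ºC library lay above every 29 ºC library for 9 of 9 members in both genotypes, as it did for 27.9% of all genes tested in ntl3-1 and 26.7% in WT. The median log2 fold change of the members was 10.94 in ntl3-1 and 12.32 in WT. When all genes tested were ranked by their log2 fold change, the 8 inducible members took ranks 9 to 31 in ntl3-1 and ranks 2 to 42 in WT, while LOC_Os01g04350 took rank 2895 in ntl3-1 and 2250 in WT. Without the first ntl3-1 replicate at 29 ºC, which stood above the others for 8 of 9 members, the log2 fold changes in ntl3-1 were 10.32 (LOC_Os03g16040) to 11.96 (LOC_Os01g04360) for the inducible genes and 1.48 for LOC_Os01g04350, and 9 of 9 were still called.

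**Figure D2:**
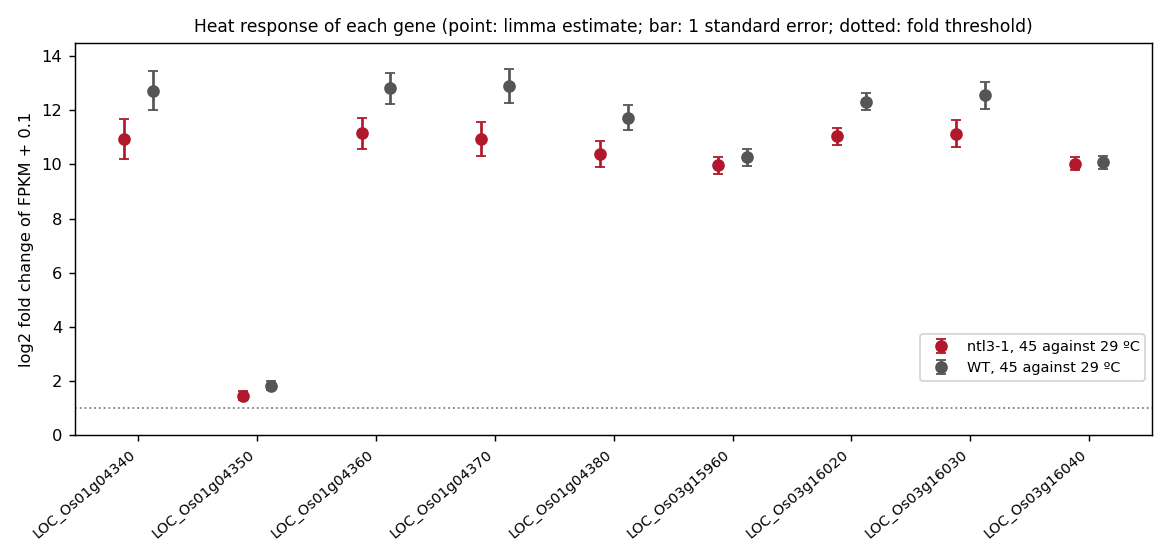
Log2 fold change of FPKM + 0.1 between 45 ºC and 29 ºC for each gene, with ntl3-1 (red) left of WT (grey). Points are limma estimates, bars are 1 standard error and the dotted line is the fold threshold of 1; 8 genes lie between 9.96 and 12.89, LOC_Os01g04350 lies at 1.46 in ntl3-1 and 1.83 in WT, and all 9 estimates are lower in ntl3-1.

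After 3 h at 45 ºC the 9 genes made up a large part of the transcriptome. Their summed FPKM was 186184, 170660 and 129676 in ntl3-1 and 146347, 160284 and 201604 in WT. This was 13.7%, 13.7% and 10.9% of the FPKM of a library in ntl3-1, and 12.1%, 13.9% and 14.7% in WT. At 29 ºC the share was 0.0684%, 0.0358% and 0.0443% in ntl3-1, and 0.0368%, 0.0385% and 0.0363% in WT. On the log2 scale the sum rose by 8.95 in ntl3-1 and by 9.49 in WT, or by 7.76 in ntl3-1 and 8.25 in WT after quantile normalization and by 8.01 in ntl3-1 and 8.51 in WT with equal FPKM sums. The FPKM left after taking out the 9 genes still summed to 992739 to 1169682 at 45 ºC and to 610645 to 698721 at 29 ºC.

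**Figure D3:**
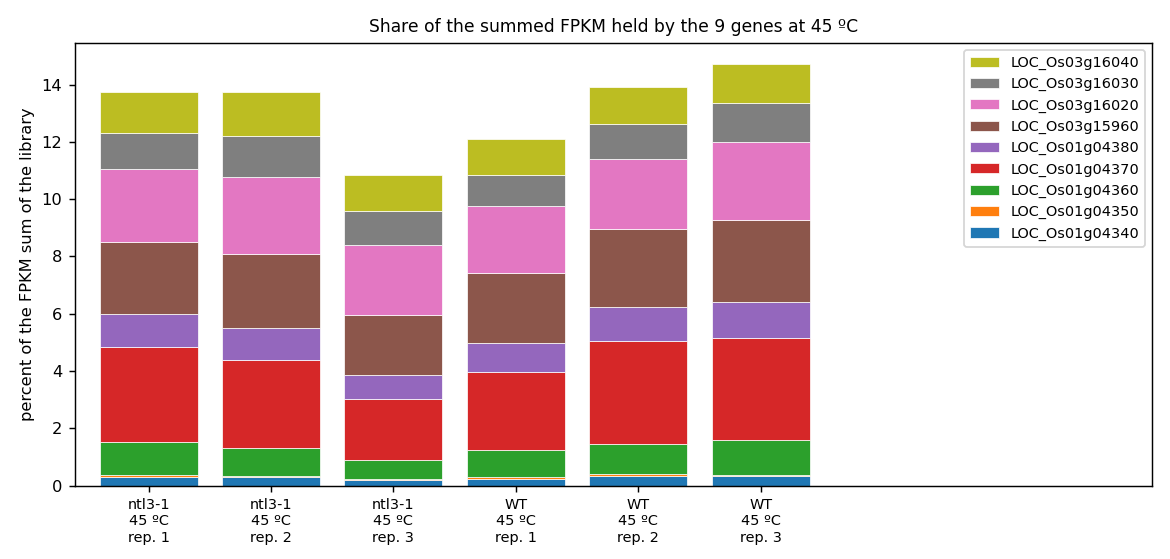
Percent of the FPKM sum of each 45 ºC library held by each of the 9 genes, with the 3 ntl3-1 replicates left of the 3 WT replicates. The stacked bars reach 10.9% to 13.7% in ntl3-1 and 12.1% to 14.7% in WT, and LOC_Os01g04370, LOC_Os03g15960 and LOC_Os03g16020 form the largest parts.

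The order of the members was different at the 2 temperatures. At 45 ºC LOC_Os01g04370 had the highest mean in both genotypes, followed by LOC_Os03g16020 and LOC_Os03g15960 in ntl3-1 and by LOC_Os03g15960 and LOC_Os03g16020 in WT, and the ranges of neighbours in this order overlapped. Within the libraries of WT the order of these 3 genes held in 3 of 3. In ntl3-1 the first was above the second in 2 of 3 libraries, and the second above the third in 2 of 3. These were not the same libraries, since LOC_Os03g16020 was below LOC_Os03g15960 in replicate 1 and LOC_Os01g04370 below LOC_Os03g16020 in replicate 3. LOC_Os03g16040, LOC_Os03g16030, LOC_Os01g04380 and LOC_Os01g04360 followed in both genotypes, again with overlapping ranges, but within the libraries each was above the next in 3 of 3, apart from LOC_Os03g16030 over LOC_Os01g04380 in WT with 2 of 3. The first 3 genes were separated from these 4, these 4 from LOC_Os01g04340, and LOC_Os01g04340 from LOC_Os01g04350, without overlap. LOC_Os01g04370 was the most abundant of all genes in 5 of the 6 libraries at 45 ºC and ranked 3 in the third ntl3-1 replicate. Of the 9 members, 7 were among the 20 most abundant genes in each of these 6 libraries.

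At 29 ºC LOC_Os01g04350 made up 64.7% of the member sum in ntl3-1 and 73.7% in WT (mean shares of 3 libraries), against 0.351% and 0.369% at 45 ºC. In WT it was followed by LOC_Os03g15960 and LOC_Os03g16040, each separated from the next without overlap, while LOC_Os03g16020 overlapped with LOC_Os01g04370. In ntl3-1 at 29 ºC LOC_Os01g04350 was separated from the next gene, and the ranges of all later neighbours overlapped, although LOC_Os03g16030 was above LOC_Os01g04360, and LOC_Os01g04360 above LOC_Os01g04340, in 3 of 3 libraries. The chromosome 1 genes summed to 0.772, 0.671 and 0.552 times the chromosome 3 genes in ntl3-1 and to 0.699, 0.815 and 0.772 times in WT at 45 ºC. At 29 ºC this ratio was 2.70, 4.41 and 3.73 in ntl3-1 and 3.50, 3.89 and 3.68 in WT, with LOC_Os01g04350 as the largest part of the chromosome 1 sum. Without this gene, a choice made after seeing the data, the ratio was 0.765, 0.666 and 0.547 in ntl3-1 and 0.692, 0.808 and 0.766 in WT at 45 ºC, and 0.928, 0.303 and 0.400 in ntl3-1 and 0.222, 0.233 and 0.235 in WT at 29 ºC. The inducible chromosome 1 genes thus had a larger share at 45 ºC than at 29 ºC in WT, and in ntl3-1 the first 29 ºC replicate was above all 45 ºC libraries.

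At 45 ºC the levels of ntl3-1 and WT overlapped for every class I gene. By limma 0 of 9 members differed, and 0 of 9 had an unadjusted p of at most 0.05, where 1.13% of all genes tested were called and 14.0% had an unadjusted p of at most 0.05. Every ntl3-1 library was on one side of every WT library for 0 of 9 members, as it was for 14.0% of all genes tested. The log2 differences lay between -0.23 (LOC_Os01g04360, 95% interval -1.50 to 1.05) and 0.13 (LOC_Os03g16040, 95% interval -0.40 to 0.66), with a median of -0.14 against -0.01 over all genes tested. The 5 chromosome 1 genes and LOC_Os03g15960 had lower estimates in ntl3-1, and LOC_Os03g16020, LOC_Os03g16030 and LOC_Os03g16040 had higher ones. Without the third ntl3-1 replicate all 9 estimates were above 0, so the 6 lower estimates rest on 1 library. The intervals allow differences of more than 2-fold for LOC_Os01g04340, LOC_Os01g04360, LOC_Os01g04370, LOC_Os01g04380 and LOC_Os03g16030.

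At 45 ºC the members shared the lowest replicate in ntl3-1 and the highest replicate in WT, but to unequal degrees. The third ntl3-1 replicate was the lowest ntl3-1 library for all 9 genes, at 0.581 times the WT mean for LOC_Os01g04340 and 0.622 times for LOC_Os01g04370, but at 0.929 times for LOC_Os03g16020 and 0.935 times for LOC_Os03g16030. The third WT replicate was the highest WT library for all 9 genes, between 1.10 and 1.23 times the WT mean. This was not particular to the members. LOC_Os08g39140, an HSP90 gene, held 5169, 4958 and 7767 FPKM in WT at 45 ºC. Not every heat-induced gene did so, since LOC_Os02g52150 held 1776, 1211 and 1727 FPKM in the same libraries. The share of all genes tested with either replicate pattern was not computed. The summed FPKM of all genes was also the lowest of ntl3-1 in replicate 3 and the highest of WT in replicate 3, and the part of this in the levels was not tested.

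**Figure D4:**
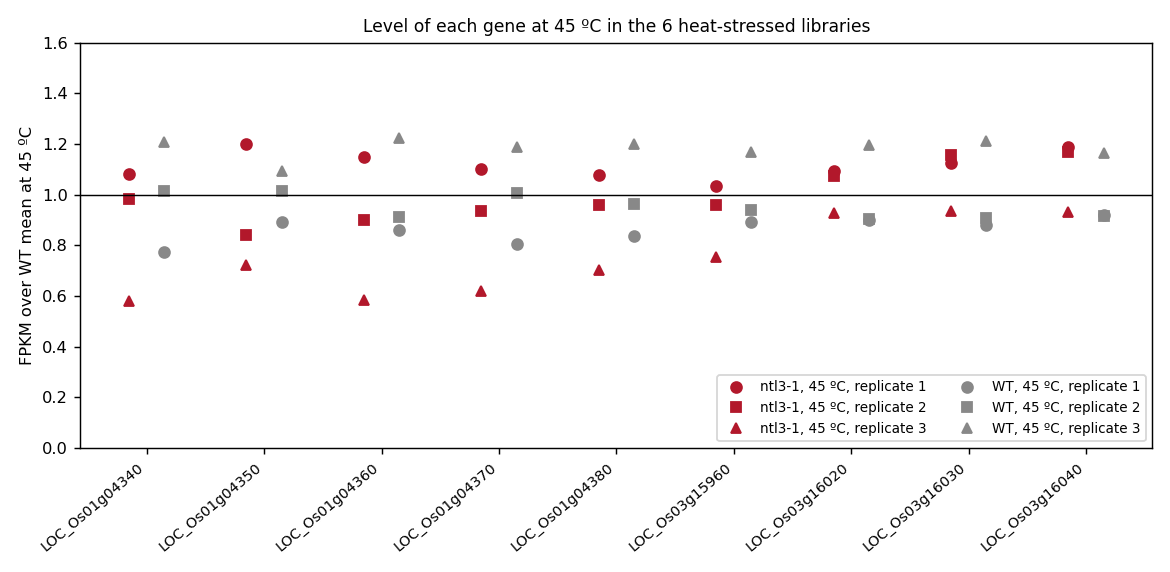
FPKM of each gene in the 6 libraries at 45 ºC over the WT mean at 45 ºC, with ntl3-1 (red) left of WT (grey) and a symbol for each replicate. The ntl3-1 points lie between 0.581 and 1.20 and the WT points between 0.775 and 1.23, with overlap for all 9 genes.

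At 29 ºC all 9 estimates were higher in ntl3-1, and none passed the thresholds. LOC_Os03g16020, at the levels given above, came closest, with a log2 difference of 1.33 (standard error 0.31, adjusted p = 0.0512 from limma), and its adjusted p lay between 0.00983 and 0.213 over 22 alternatives. LOC_Os03g16030 held 18.6, 2.80 and 6.83 FPKM in ntl3-1 against 2.17, 2.54 and 2.50 FPKM in WT. The genotypes do not overlap for either gene, but the second ntl3-1 replicate is close to WT. The log2 difference of LOC_Os03g16030 was 1.53 (standard error 0.50, adjusted p = 0.176 from limma).

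LOC_Os01g04380 held 25.8, 5.14 and 6.61 FPKM in ntl3-1 and 3.95, 4.20 and 4.17 FPKM in WT at 29 ºC, and LOC_Os01g04360 held 15.2, 1.92 and 3.97 FPKM in ntl3-1 and 1.82, 1.47 and 2.02 FPKM in WT. For both, the first ntl3-1 replicate is far above the rest, and for LOC_Os01g04360 the second lies within the WT values. LOC_Os03g16040 held 25.2, 12.2 and 15.5 FPKM in ntl3-1 and 16.7, 14.1 and 13.7 FPKM in WT. Apart from the first ntl3-1 replicate, its values overlap between the genotypes or lie below WT.

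By limma 0 of 9 members differed at 29 ºC, where 1.99% of all genes tested were called. An unadjusted p of at most 0.05 was found for 5 of 9 members, against 13.6% of all genes tested. Every ntl3-1 library was above every WT library for 5 of 9 members (LOC_Os01g04350, LOC_Os01g04370, LOC_Os01g04380, LOC_Os03g16020 and LOC_Os03g16030), as it was for 13.1% of all genes tested. The median log2 difference was 1.33 over the members and -0.00019 over all genes tested. The count of calls depended on single libraries: 2 members (LOC_Os03g16020 and LOC_Os03g16030) were called without the second ntl3-1 replicate at 29 ºC, and 1 (LOC_Os03g16020) without the third WT replicate at 45 ºC.

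The first ntl3-1 replicate carried most of the log2 difference at 29 ºC, except for LOC_Os01g04350, LOC_Os03g16020 and LOC_Os03g16030. Without it these genes had log2 differences of 0.20, 1.04 and 0.85, against 0.23, 1.33 and 1.53 with all libraries. This replicate was above all WT libraries for 9 of 9 members and above both other ntl3-1 libraries for 8 of 9, by 1.34-fold to 5.61-fold over the higher of these. The second was above all WT libraries for 5 and the third for 7 members. Without the first replicate the log2 differences lay between -0.23 (LOC_Os03g15960) and 1.04 (LOC_Os03g16020), and the estimates of LOC_Os03g15960 and LOC_Os03g16040 were below 0. In the same library other chaperone genes were high as well, since it exceeded both other ntl3-1 libraries for 8 of 11 HSP20 genes outside the members and for 11 of 14 HSP100, HSP70 and HSP90 genes and partners. This was the case for 5 of 12 heat shock factors, and for 9725 of all 31681 genes tested. The median ratio to the higher of both other libraries, over every gene of a set, was 1.55, 1.26, 0.977 and 0.939 in this order.

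Of 4 loci taken as green tissue genes, 4 were above all WT libraries at 29 ºC in each ntl3-1 library, as were 13.1% of all genes tested. The summed levels of these 4 loci at 29 ºC were 25570 to 31420 FPKM in ntl3-1 and 15782 to 20079 FPKM in WT. Their sums were 23968 to 32582 FPKM in ntl3-1 and 15011 to 24051 FPKM in WT at 45 ºC. The sums of 4 loci taken as root genes were 533 to 808 FPKM in ntl3-1 and 668 to 830 FPKM in WT at 29 ºC, and 144 to 198 FPKM in ntl3-1 and 127 to 273 FPKM in WT at 45 ºC. None of the 8 loci was at 0 in any group. By limma 0 of 4 green tissue and 0 of 4 root genes differed between genotypes, where 1.99% of all genes tested did at 29 ºC and 1.13% at 45 ºC. An unadjusted p of at most 0.05 was found for 0 and 2 at 29 ºC, against 13.6% of all genes tested. At 45 ºC it was found for 0 and 0, against 14.0%. With heat stress 3 of 4 root genes fell in each genotype, where 11.3% of all genes tested fell in ntl3-1 and 11.8% in WT. The 2 root genes with an unadjusted p of at most 0.05 from limma at 29 ºC went opposite ways. Their log2 differences of ntl3-1 against WT were -1.19 and 0.66, which the root sum hides. The part of tissue proportions in the levels of the class I genes was not tested.

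**Figure D5:**
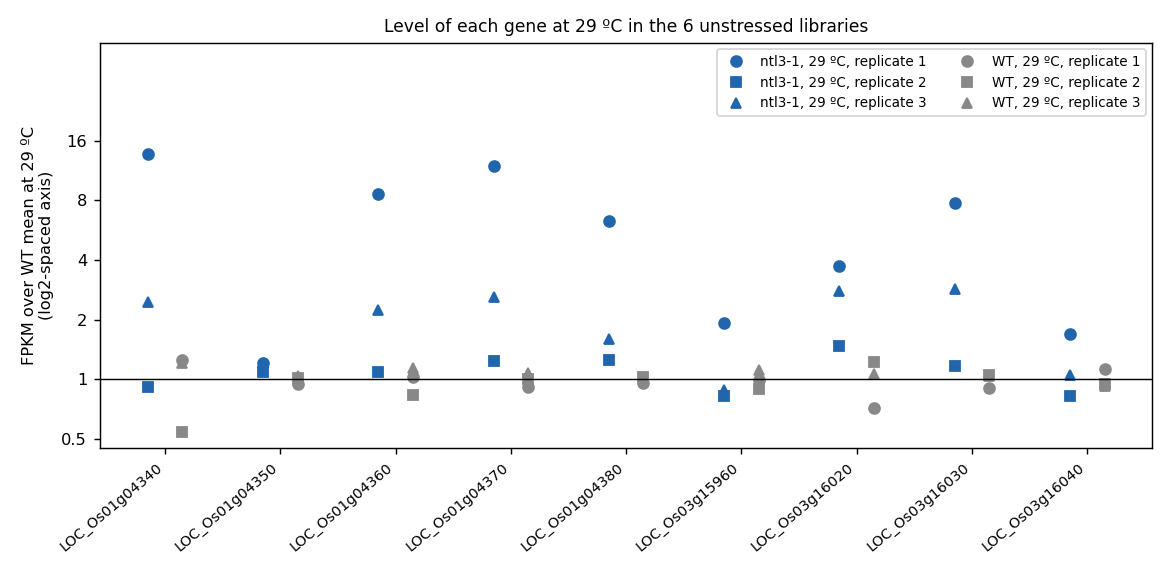
FPKM of each gene in the 6 libraries at 29 ºC over the WT mean at 29 ºC (log2-spaced axis), with ntl3-1 (blue) left of WT (grey) and a symbol for each replicate. The first ntl3-1 replicate reaches 13.8 times the WT mean for LOC_Os01g04340 and 11.96 times for LOC_Os01g04370, while the second lies between 0.821 and 1.48 times for all 9 genes.

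Whether the heat response itself differed between genotypes was tested as the interaction, the log2 fold change in ntl3-1 minus that in WT. By limma 0 of 9 members passed an adjusted p of at most 0.05, as did 0.24% of all genes tested, and 1 of 9 (LOC_Os03g16020, unadjusted p = 0.0149 and adjusted p = 0.470) had an unadjusted p of at most 0.05, against 7.62% of all genes tested. All 9 estimates were negative, from -1.94 (LOC_Os01g04370, 95% interval -3.91 to 0.03) to -0.06 (LOC_Os03g16040, 95% interval -0.81 to 0.69), with a median of -1.34 against -0.01 over all genes tested. The interaction shares the 29 ºC libraries with the comparison of genotypes above. Without the first ntl3-1 replicate at 29 ºC the estimates lay between -1.03 (LOC_Os01g04370) and 0.23 (LOC_Os03g16040), and 2 of 9 were positive.

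The rest of the chaperone network was examined in lists whose loci without an annotation in the study rest on general knowledge. Of 11 HSP20 genes outside the members, 11 rose and 0 fell in ntl3-1 and 11 rose and 0 fell in WT, with a median log2 fold change of 10.05 and 10.49. LOC_Os03g14180, an hsp20/alpha crystallin family protein, held 26823, 21129 and 19560 FPKM in ntl3-1 and 20548, 26058 and 29665 FPKM in WT at 45 ºC, which is within the range of the class I genes. Of 12 heat shock factors, 9 rose in ntl3-1 and 10 in WT, and 0 fell. Of all genes tested, 12.9% rose and 11.3% fell in ntl3-1, and 13.2% rose and 11.8% fell in WT. LOC_Os06g36930, with an HSF-type DNA-binding domain, rose by 11.34 on the log2 scale in ntl3-1 and 12.06 in WT, and LOC_Os03g53340, of the same type, by 10.56 and 11.05.

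Of 16 listed HSP100, HSP70 and HSP90 genes and partners, 14 could be tested, and 13 of these rose and 0 fell in each genotype. Of all genes tested, 12.9% rose in ntl3-1 and 13.2% in WT. The median log2 fold change of the list was 6.43 in ntl3-1 and 6.52 in WT. LOC_Os08g39140, an HSP90 gene (HSP81-1), rose by 6.45 in ntl3-1 and 6.33 in WT, and the DnaK family (HSP70) genes LOC_Os03g16860 and LOC_Os11g47760 rose by 5.06 and 2.57 in ntl3-1 and by 4.68 and 2.48 in WT. LOC_Os04g45480, annotated as heat shock protein STI, rose by 9.40 in ntl3-1 and 10.24 in WT. In these 3 lists 0 genes passed the interaction and 0 differed between genotypes at either temperature by limma. Of all genes tested, 0.24% passed the interaction, 1.99% differed at 29 ºC and 1.13% at 45 ºC. An unadjusted p of at most 0.05 was found for the interaction in 4 of 11, 1 of 12 and 1 of 14 genes of the HSP20, heat shock factor and partner lists, for ntl3-1 against WT at 29 ºC in 5, 4 and 3, and at 45 ºC in 0, 1 and 1. The shares over all genes tested were 7.62% for the interaction, 13.6% at 29 ºC and 14.0% at 45 ºC.

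The genes most like the class I members over the 12 libraries were found by the root mean square difference between their centred log2(FPKM + 0.1) and the median profile of the 9 members, among 13887 candidates with a mean of at least 5 FPKM. The 5 nearest were LOC_Os03g53400 (0.20), LOC_Os07g47840 (0.33), LOC_Os03g16920 (0.36), LOC_Os11g31060 (0.37) and LOC_Os04g36750 (0.42). LOC_Os03g16920, annotated as a DnaK family protein, held 4957, 4486 and 4048 FPKM in ntl3-1 and 3593, 4119 and 6245 FPKM in WT at 45 ºC, and 14.3, 1.10 and 1.82 FPKM in ntl3-1 and 0.980, 1.01 and 1.04 FPKM in WT at 29 ºC. As for most members, its first ntl3-1 replicate at 29 ºC is well above the other 5. The choice by profile over these same 12 libraries favours genes with this trait, so it is not a separate observation. The members themselves lay 0.22 (LOC_Os01g04380) to 0.85 (LOC_Os03g16040) from their median profile, apart from LOC_Os01g04350 at 4.92.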

How the data were processed

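Per the paper, the authors filtered the reads, used TopHat with the MSU rice genome and computed FPKM with RSEM; the deposited processing notes instead list Bowtie 0.12.2 and mm8. FPKM as the authors deposited them, 1 column per library, were used here. No read counts were used, so no counting error is given. Genes above 0 FPKM in at least 3 of 12 libraries were tested on log2(FPKM + 0.1) with limma 3.58.1 in R 4.3.3 (1 mean per group, 8 residual degrees of freedom, variances following the mean), with two-sided p-values and Benjamini-Hochberg adjustment over the genes tested. The procedure was tested on simulated data. The members and lists were chosen with earlier results of these data known. Named are the members, listed loci annotated by the study, and the 5 genes of most similar profile. Alternatives were other constants (1 and 0.01 FPKM), filters, scalings, a separate model per comparison, a replicate block, variances not following the mean, and each library left out. Sequences were not used here.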

Additional observations from a re-analysis of the deposited data

How the results depend on the processing

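No called result changed its direction. Estimates that were not called changed sign in 4 of 189 member values of the interaction and 2 of 198 at 29 ºC, for LOC_Os03g15960 and LOC_Os03g16040, and in 9 of 198 at 45 ºC, for 7 members, all with 1 library left out. Of 22 alternatives, 20 gave 9 of 9 up-regulated members in each genotype, and quantile normalization and equal FPKM sums gave 8, without LOC_Os01g04350. The members called at 29 ºC numbered 1 with a constant of 0.01 FPKM, 1 with a filter of 1 FPKM in 3 libraries, 1 with quantile normalization, and 0 to 2 when 1 library was left out. Calls at 45 ºC and of the interaction stayed at 0 throughout. The log2 ratio of summed FPKM of the members was 7.76 in ntl3-1 and 8.25 in WT after quantile normalization and 8.01 in ntl3-1 and 8.51 in WT with equal FPKM sums, and when 1 library was left out it was 8.78 to 9.21 in ntl3-1 and 9.35 to 9.58 in WT. The log2 ratio of ntl3-1 over WT at 45 ºC was -0.06 (-0.17 to 0.08 when 1 library was left out). Labels number the replicates, but of 18 same-numbered pairs 0 had deviations correlated above 0.1, and 3 of 12 libraries correlated best with their own number. No pairing by number was thus seen over the genes as a whole. These correlations cannot show pairing that touches few genes, and whether the numbers pair the samples is not stated. With the replicate block 9 members rose in each genotype and 0 were called in the other comparisons. Small differences at 45 ºC and levels of single copies are limited by 3 replicates, an unknown depth and shared reads.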

Other observations

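LOC_Os06g14240, an hsp20/alpha crystallin family gene, held 11.99, 7.32 and 6.43 FPKM in ntl3-1 and 9.86, 12.8 and 9.38 FPKM in WT at 29 ºC. At 45 ºC it held 3468, 2972 and 3147 FPKM in ntl3-1 and 2918, 2681 and 3756 FPKM in WT. LOC_Os02g52150, a heat shock 22 kDa protein gene, held 1883, 2065 and 2033 FPKM in ntl3-1 and 1776, 1211 and 1727 FPKM in WT at 45 ºC, and 4.66, 4.57 and 5.27 FPKM in ntl3-1 and 5.60, 3.21 and 4.55 FPKM in WT at 29 ºC. Both rose with heat stress in each genotype, by 8.57 in ntl3-1 and 8.18 in WT on the log2 scale for LOC_Os06g14240 and by 8.66 in ntl3-1 and 8.44 in WT for LOC_Os02g52150. For neither LOC_Os06g14240 nor LOC_Os02g52150 did the first ntl3-1 replicate at 29 ºC lie above all WT libraries. It did so for 8 of the 11 HSP20 genes outside the members.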
